A study of Mus musculus with 12 samples.

Results

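The mitochondrial respiratory chain passes electrons through complexes I to IV and pumps protons across the inner membrane, and the ATP synthase, complex V, uses the return of those protons to make ATP. Complex I takes electrons from NADH and complex II from succinate. Complex III hands them to cytochrome c, and complex IV passes them to oxygen. Cardiac muscle is densely packed with mitochondria and depends on this pathway for contraction, and several of its complex IV subunits exist as a muscle and a ubiquitous isoform encoded by separate nuclear genes.

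The members of this set were chosen by symbol. They were all array probes whose platform gene symbol starts with Nduf, Uqcr, Cox4, Cox5, Cox6, Cox7, Cox8 or Atp5, or is Sdha, Sdhb, Sdhc, Sdhd, Cyc1 or Cycs. The rule found 139 probes for 89 genes among 45281 probes. Of these, 117 probes for 82 genes had a detection p under 0.05 on at least 6 of 12 arrays and were tested, out of 15038 such probes in all. The other 22 probes were not measured, and 7 genes had no measured probe. These were Ndufs1, Sdha, Uqcrfs1, Cox7b2, Cox8c, Ndufaf3 and Ndufaf6. Cox8a and Atp5g1 had no probe under the rule and were not analysed here. The prefix Nduf also took in assembly factors, which build complex I but do not remain in it, and the pseudogene Ndufs5-ps. Ndufa4, named for complex I, was counted with complex IV, of which its protein is a subunit, and cytochrome c with complex III.

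The cells were cardiac myocytes from hearts of C57BL/6 mice aged 12-16 weeks, freed with collagenase and plated on laminin. They were kept in a medium with serum albumin and BDM, an inhibitor of contraction. One group of 6 samples received 200 nmol/L of recombinant CTGF (connective tissue growth factor, a secreted matricellular protein) for 48 h, and the other group of 6, Control, was cultured without it. The labels do not say whether the 6 samples of a group came from separate hearts, so the spread behind each p-value may be technical in part. The comparison asks which transcripts differ between myocytes with and without added CTGF.

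Between 14747 and 16390 probes were detected per array, and arrays of the same group correlated at 0.976 to 0.994. Of all probes tested, 19.7% were lower with CTGF and 23.8% higher (limma, adjusted p under 0.05), and the marker counts here stand beside those shares. Myocyte markers were strong in both groups, and 3 of 9 measured genes were lower. Their mean log2 intensity per array was 12.21 to 12.52 with CTGF and 12.60 to 12.71 in controls. Markers of other heart cells were present too, and some of them differed between the groups. All 11 measured endothelial markers were lower with CTGF, with a summed intensity of 1765 to 2199 per array against 6450 to 7932 in controls. Of 7 smooth muscle and pericyte markers, 6 were lower and 1, Cspg4, was higher, with summed intensities of 2615 to 3212 with CTGF and 4509 to 5175 in controls. Of 5 fibroblast markers 2, Pdgfra and Tcf21, were lower, while Col1a2, Dcn and Lum did not pass the threshold. Summed fibroblast intensities overlapped, at 4957 to 5867 with CTGF and 3832 to 7137 in controls, and Dcn was the brightest of the 5. Of 2 macrophage markers 1 was lower, at 25.5 to 33.4 and 33.0 to 70.8. None of 5 adipocyte markers was measured. These cells also contain a respiratory chain, and their part in the results below was not tested. In a bulk sample, fewer cells of a type and less RNA per cell cannot be told apart.

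With CTGF, 34 of the 117 member probes were lower and 1 was higher, while 82 did not pass the threshold (limma, Benjamini-Hochberg adjusted p under 0.05 over all 15038 probes). The 34 probes belong to 28 genes, and every complex has at least 1 of them, though in complex III they are both for cytochrome c. The lower share of 29.1% stands against 19.7% of all probes tested, and the higher share of 0.855% against 23.8% of all probes. Falls of at least 2-fold were seen at 5 of the 117 member probes, against 500 of all 15038 probes, or 3.32%. The 6 CTGF arrays all lay below the 6 control arrays at 12 member probes, or 10.3%, where 10.7% of all probes did so. They all lay above at 1, where 11.9% of all probes did so. The median log2 fold change of the 117 probes was -0.09 and that of all probes was 0.05.

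These counts depended on how the arrays were brought to a common scale. The values given here are quantile normalized. With median scaling 17 member probes were lower and 9 higher, and the median of all probes was 0.30. Without normalization between arrays 15 were lower and 13 higher, the median of all probes was 0.34 and the median of the members turned to 0.04. Relative to all probes the member median was -0.14 with quantile normalization, -0.35 with median scaling and -0.30 without normalization. All changes described here are thus set against the rest of the array. Over all probes, 7.95% were lower and 44.9% higher with median scaling, and 7.10% lower and 48.3% higher without normalization.

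**Figure D1:**
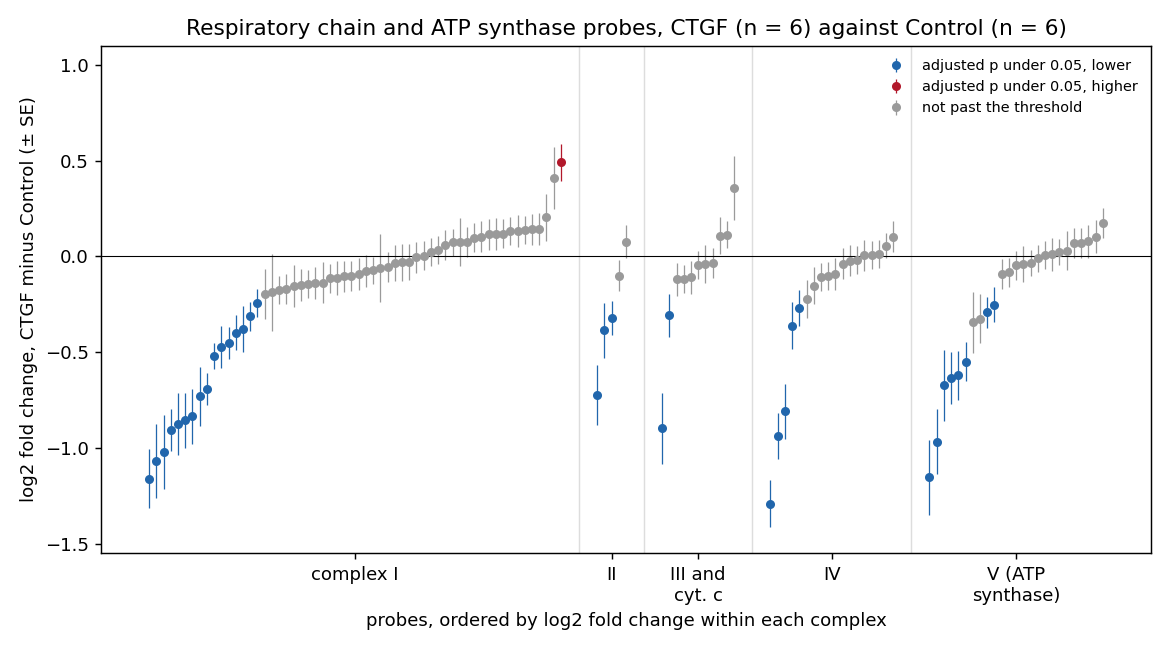
Log2 fold change, CTGF minus Control, of each of the 117 measured probes (vertical axis), ordered by size within each complex, with bars for the limma standard error and colour for the test at an adjusted p under 0.05. The 34 lower probes lie at the left of each complex, though in complex V probes of Atp5k and Atp5g2 that did not pass lie among them. The single higher probe is Ndufaf4. Without normalization between arrays the counts were 15 lower and 13 higher, and the medians of complexes I, III and V turned from below to above 0.

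The lower probes were spread over the weaker signals. Among the 31 member probes with a mean log2 intensity of 14 or more, none was lower at the adjusted threshold, where 12.5% of all probes that bright were. This strong class held probes for Cox6a2, Cox7a1, Atp5b, Atp5g3, Ndufa13 and Uqcr10. Of 44 probes at 11 to under 14, 11 were lower, with 23.7% for all probes. Of 24 probes at 8 to under 11, 14 were lower, with 23.9% for all probes, and of 18 under 8, 9 were lower, with 18% for all probes. Below 11, 23 of 42 member probes, 54.8%, were therefore lower, beside 19.6% of all 14052 such probes. With median scaling this became 11 lower and 9 higher, and without normalization 10 lower and 11 higher. Over all probes of any brightness, 7.95% were lower and 44.9% higher with median scaling, and 7.10% and 48.3% without normalization. The strong probes had mean raw intensities of 18885 to 60402, and the highest raw value of any probe on any array was 65657. Whether their signals were compressed near that ceiling was not tested.

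Complex I, the largest complex, has a matrix arm that oxidises NADH and a membrane arm that pumps protons. Of its 58 measured probes 16 were lower and 1 was higher, beside 19.7% and 23.8% of all probes, with a median of -0.10 that was -0.02 with median scaling and turned to 0.06 without normalization. The subunits with the prefix Ndufb, which sit in the membrane arm, held 8 of the 16 lower probes. Of 13 Ndufb probes those 8 were lower and none higher, for 7 of 10 genes, with a median of -0.45, beside the 19.7% lower among all probes. With median scaling the Ndufb probes gave 5 lower and 1 higher and a median of -0.11, where 7.95% of all probes were lower and 44.9% higher. Without normalization they gave 5 lower, 1 higher and -0.05, where 7.10% of all probes were lower and 48.3% higher. Of the core subunits, which carry the electron path, 1 of 5 probes was lower. Of the other accessory subunits 5 of 31 were lower. None of these core and accessory probes was higher. The Ndufb probes were dimmer, with a median of the mean log2 intensity of 10.7, against 13.5 for core and 13.3 for other accessory probes. Of the Ndufb probes 61.5% were lower, beside 54.8% of member probes of any complex under 11. Whether the Ndufb share goes beyond that of dim member probes was not tested.

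Ndufb10, an accessory subunit of the membrane arm, was lower at both of its probes. At the probe ILMN_2691261 it read 11.88 to 12.18 on the log2 scale with CTGF (median 11.97) and 12.60 to 12.83 in controls (median 12.67). Its log2 fold change there was -0.69 ± 0.08 (SE, adjusted p = 9.35e-06). At ILMN_2900216 it read 9.33 to 10.11 with CTGF (median 9.57) and 10.22 to 11.03 in controls (median 10.82), a change of -1.16 ± 0.16 (adjusted p = 2.88e-05). The groups did not overlap at either probe, and CTGF 6 and Control 1 were the closest arrays at the second.

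The other Ndufb genes that fell each had their call from a single probe. Ndufb4 read 7.02 to 8.13 with CTGF (median 7.26) and 7.89 to 8.78 in controls (median 8.57), and fell by 1.02 ± 0.19 (SE, adjusted p = 0.000601). Its arrays overlapped, and close paralogs of this gene exist in the mouse, so its probe may also read them. Ndufb9 fell by 0.87 ± 0.16, Ndufb5 by 0.84 ± 0.14 and Ndufb2 by 0.73 ± 0.15. Ndufb7 fell by 0.45 ± 0.08, with 9.96 to 10.26 with CTGF and 10.35 to 10.69 in controls, and its groups did not overlap. Ndufb6 fell by 0.38 ± 0.12 at its dimmer probe and read 0.10 higher, not past the threshold, at its brighter one. The dimmer Ndufb6 probe turned to 0.02 with median scaling, and neither Ndufb2 nor Ndufb7 passed the threshold with that scaling or without normalization.

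Ndufs4, an accessory subunit near the NADH-oxidising tip whose loss causes Leigh syndrome, was measured by 4 probes. At ILMN_2640944 it read 12.02 to 12.19 with CTGF (median 12.14) and 12.59 to 12.69 in controls (median 12.66), a change of -0.52 ± 0.07 (SE, adjusted p = 2.36e-05). ILMN_2663694 gave -0.91 ± 0.11 (adjusted p = 1.00e-05) and ILMN_2900025 gave -0.40 ± 0.09 (adjusted p = 0.0024). The groups were apart at all 3 of these probes. The brightest probe, ILMN_1234521, gave -0.14 ± 0.08 (adjusted p = 0.201), with overlapping arrays. The call at ILMN_2900025 was lost with median scaling (adjusted p = 0.126) and without normalization (adjusted p = 0.276).

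Ndufa5, an accessory subunit of the matrix arm, differed between its probes. At ILMN_2691460 it read 9.35 to 10.46 with CTGF (median 9.63) and 10.38 to 11.17 in controls (median 10.93), a change of -1.07 ± 0.19 (SE, adjusted p = 0.000407). At the brighter ILMN_1216007 the change was 0.00 ± 0.08 (adjusted p = 0.972). Among the remaining complex I subunits, Ndufa11, part of the membrane arm, fell by 0.31 ± 0.08 with no overlap of the groups. Ndufs8, a core subunit that carries iron-sulphur clusters, fell by 0.24 ± 0.07, also without overlap. Neither of these passed the threshold with median scaling. The brightest complex I probes were those of Ndufa13 and Ndufs6. Ndufa13 changed by 0.00 ± 0.08, and Ndufs6 by 0.03 ± 0.07 at its brighter probe and -0.15 ± 0.11 at its dimmer one, none past the threshold.

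Assembly factors of complex I went both ways, with 2 of 8 probes lower and 1 higher, beside 19.7% and 23.8% of all probes. Ndufaf4, which works early in the building of the matrix arm, had the only rise among all members. At ILMN_2734060 it read 9.89 to 10.53 with CTGF (median 10.17) and 9.63 to 9.79 in controls (median 9.73), a change of 0.49 ± 0.10 (SE, adjusted p = 0.000918), with no overlap. Its second probe gave 0.41 ± 0.16 (adjusted p = 0.0508). Ndufaf5, which modifies a core subunit, fell by 0.86 ± 0.14 (adjusted p = 0.000233) at one probe and gave -0.17 ± 0.08 (adjusted p = 0.0900) at its brighter one. Ndufaf2, which assists late assembly, fell by 0.47 ± 0.11, a call lost with median scaling.

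**Figure D2:**
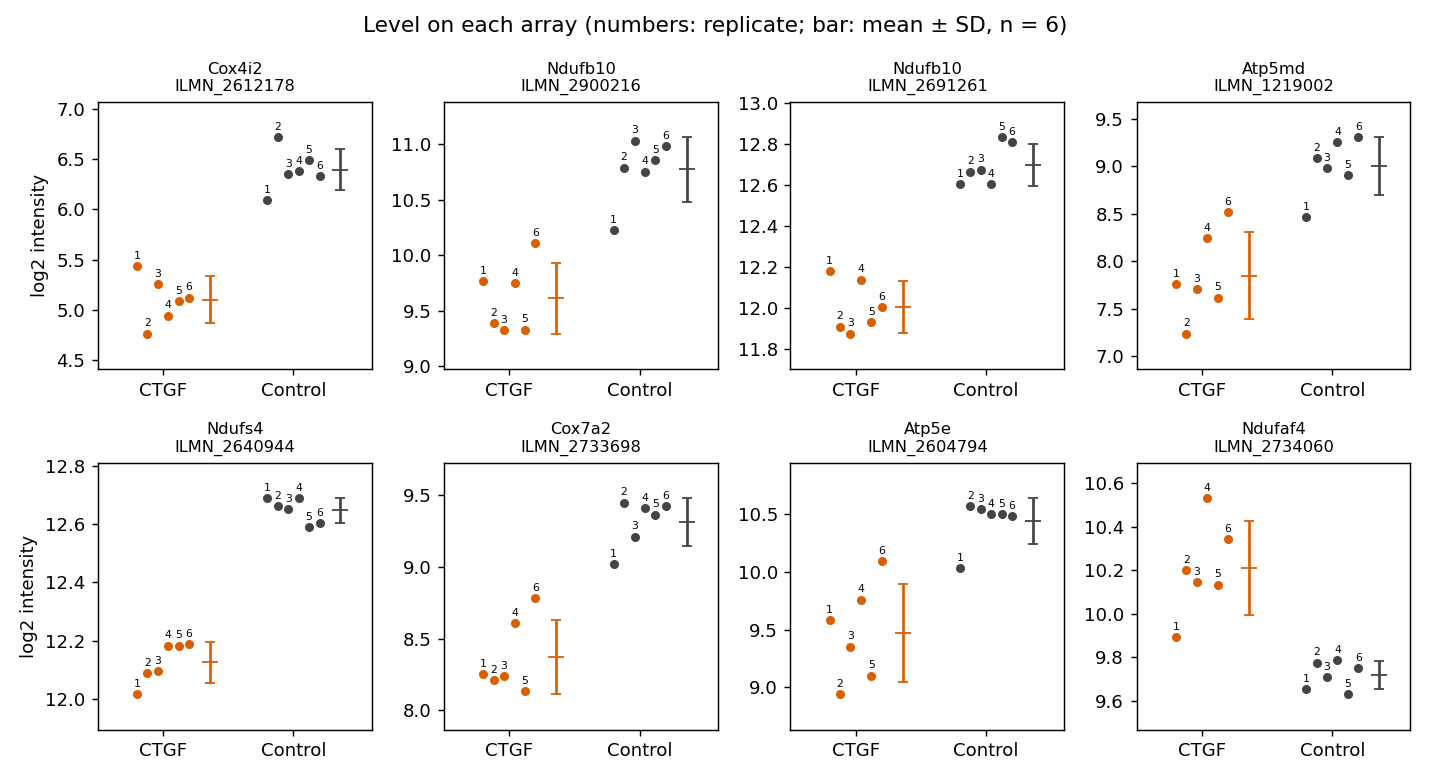
Normalized log2 intensity on each array (vertical axis) of 8 member probes, with CTGF arrays in orange left of Control arrays in grey, replicate numbers beside the points and bars for the mean ± SD (n = 6). Of these probes 7 are lower with CTGF and Ndufaf4 is higher; CTGF 4 and 6 sit highest among CTGF arrays, and Control 1 lowest among controls, at Ndufb10 (ILMN_2900216, except CTGF 1 above CTGF 4), Atp5md, Cox7a2 and Atp5e.

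Complex II is also the succinate dehydrogenase of the citrate cycle. Of its 5 measured probes 3 were lower and none was higher, beside 19.7% and 23.8% of all probes, with a median of -0.32. None was lower or higher with median scaling (7.95% and 44.9% of all probes) or without normalization (7.10% and 48.3%). Sdhd, a membrane anchor, read 7.48 to 8.54 with CTGF (median 7.60) and 8.32 to 8.61 in controls (median 8.53), and fell by 0.72 ± 0.16 (SE, adjusted p = 0.00176). Sdhb, the iron-sulphur subunit, fell by 0.32 ± 0.09 and 0.38 ± 0.14 at its 2 dimmer probes and gave -0.10 ± 0.08 at the brightest (adjusted p = 0.346). The dimmest Sdhb probe was close to background, with median raw intensities of 107.3 with CTGF and 109.0 in controls, and gave -0.20 without background correction. Sdhc, the other anchor, gave 0.08 ± 0.09 (adjusted p = 0.493).

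In complex III none of the 8 probes of its subunits passed the threshold in either direction, with a median of -0.04. Together with cytochrome c, 2 of 11 probes, or 18.2%, were lower and none higher, where 19.7% of all probes were lower and 23.8% higher. Uqcr10, a small subunit, read 15.11 to 15.45 with CTGF and 15.19 to 15.55 in controls at one probe, with changes of -0.12 ± 0.09 and 0.11 ± 0.07 at its 2 probes. Uqcrh, the hinge protein, changed by -0.03 ± 0.08. Cycs, which encodes somatic cytochrome c, had 2 of 3 probes lower. At ILMN_3155380 it read 7.26 to 8.17 with CTGF (median 7.58) and 8.04 to 8.99 in controls (median 8.63), a change of -0.90 ± 0.19 (SE, adjusted p = 0.00125). Without normalization the change at this probe was -0.47 and its call was lost (adjusted p = 0.0503). ILMN_3076459 gave -0.31 ± 0.11 (adjusted p = 0.0377), which turned to 0.06 with median scaling and 0.10 without normalization. The brightest Cycs probe gave -0.12 ± 0.07 (adjusted p = 0.210).

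In complex IV, cytochrome c oxidase, 5 of 18 probes were lower and none was higher, with a median of -0.10, where 19.7% of all probes were lower and 23.8% higher. The median remained below 0 with every other scaling, while the counts became 3 lower and none higher with median scaling (7.95% and 44.9% of all probes), and 3 lower and 1 higher without normalization (7.10% and 48.3%). Cox4i2, the lung isoform of subunit IV, had the largest fall of all members with the background correction used here. It read 4.76 to 5.43 with CTGF (median 5.11) and 6.09 to 6.72 in controls (median 6.36), a change of -1.29 ± 0.12 (SE, adjusted p = 8.08e-07), with no overlap. The probe was close to background, detected on 5 of 6 CTGF arrays and all 6 control arrays. Without background correction its change was -0.66, a smaller fall than the -1.11 at the Ndufb10 probe ILMN_2900216. With the authors' normalized values the 2 changes were -0.66 and -1.11. Beside it, 6 of the 7 smooth muscle and pericyte markers and all 11 endothelial markers were lower, by a median log2 of -0.77 over the 7 and -1.62 over the 11. Cox7a2, the ubiquitous isoform of subunit VIIa, read 8.13 to 8.78 with CTGF (median 8.25) and 9.02 to 9.44 in controls (median 9.39), and fell by 0.94 ± 0.12 (adjusted p = 1.83e-05). Cox7b, another small structural subunit, fell by 0.81 ± 0.14, also without overlap. Cox6b2, best known from testis, fell by 0.36 ± 0.12, and Cox6a1, the ubiquitous isoform of subunit VIa, by 0.27 ± 0.09 at its dimmer probe. Cox6b2 did not pass with median scaling (-0.16, adjusted p = 0.398) or without normalization (-0.13, adjusted p = 0.4996). Its probe was also close to background, with median raw intensities of 96.2 with CTGF and 103.0 in controls, and gave -0.17 without background correction. That Cox6a1 probe turned to 0.08 with median scaling and to 0.13 without normalization.

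The muscle isoforms of complex IV did not pass the threshold. Cox7a1 read 15.67 to 15.93 with CTGF (median 15.92) and 15.81 to 15.89 in controls (median 15.86), a change of 0.01 ± 0.07 (SE, adjusted p = 0.918). Cox6a2 changed by 0.06 ± 0.07 and Cox8b by -0.11 ± 0.07. Cox4i1, the common isoform of subunit IV, changed by -0.10 ± 0.08 (adjusted p = 0.294). Cox7a1 had median raw intensities of 60731 with CTGF and 61404 in controls, close to the highest value on any array, and Cox4i2 lay close to background, so no ratio between isoforms is given.

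**Figure D3:**
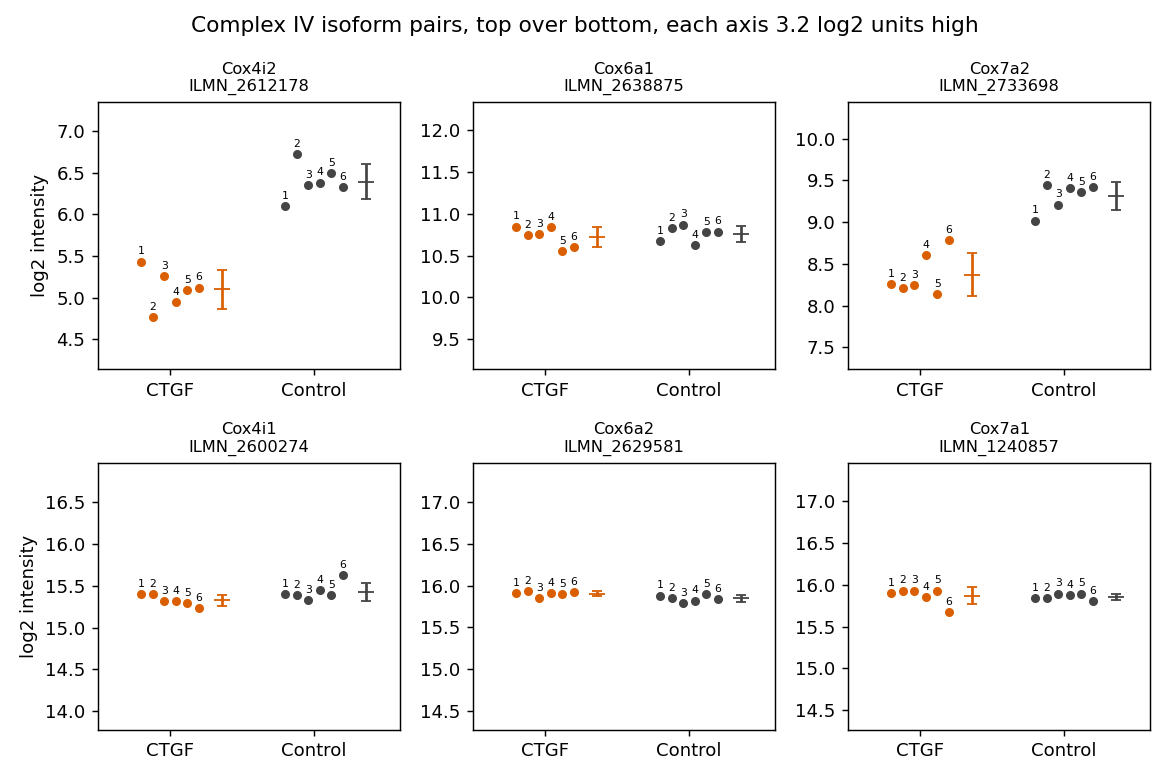
Normalized log2 intensity on each array (vertical axis, every panel spanning the same range) of 3 complex IV isoform pairs, with CTGF in orange left of Control in grey and bars for the mean ± SD (n = 6). Cox4i2 and Cox7a2 in the top row are lower with CTGF on all 6 arrays, while Cox6a1 and the 3 genes in the bottom row overlap between the groups.

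The ATP synthase has a catalytic F1 head in the matrix and a membrane-bound Fo part joined to it by stalks. Of its 25 measured probes 8 were lower and none was higher, beside 19.7% lower and 23.8% higher among all probes. The median of -0.05 turned to 0.04 without normalization. With median scaling 4 were lower and 1 higher (7.95% and 44.9% of all probes), and without normalization 3 lower and 4 higher (7.10% and 48.3%). In the F1 head 3 of 6 probes were lower, beside the same 19.7%. Atp5e, the epsilon subunit, read 8.94 to 10.09 with CTGF (median 9.47) and 10.03 to 10.57 in controls (median 10.50), and fell by 0.97 ± 0.17 (SE, adjusted p = 0.00032). Atp5a1, the alpha subunit, fell by 0.64 ± 0.14 (adjusted p = 0.0015) at its brighter probe, ILMN_2633229, a call lost without normalization (-0.36, adjusted p = 0.0668). Its dimmer probe also passed the threshold but was detected on only 2 of 6 CTGF arrays and 5 of 6 control arrays, so no size is given for it. Atp5b, the catalytic beta subunit, read 15.79 to 15.92 with CTGF and 15.86 to 15.94 in controls, a change of -0.04 ± 0.07 (adjusted p = 0.704).

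Of the 19 probes for the Fo part, stalks and associated proteins, 5 were lower, against 19.7% of all probes. Atp5md, a small protein associated with the synthase, read 7.24 to 8.52 with CTGF (median 7.73) and 8.47 to 9.30 in controls (median 9.03), and fell by 1.15 ± 0.19 (SE, adjusted p = 0.000224). Its arrays overlapped only at CTGF 6 and Control 1. Atp5pb, the stalk subunit b, fell by 0.62 ± 0.13 at 1 of its 4 probes, the brightest of which gave 0.10. Atp5k, subunit e, fell by 0.55 ± 0.10 without overlap at its brighter probe. Atp5o, which joins stalk and head, fell by 0.29 ± 0.08 at its dimmer probe and gave -0.01 at its brighter one, and Atp5h, subunit d, fell by 0.25 ± 0.09. None of Atp5pb, Atp5k, Atp5o and Atp5h passed the threshold with median scaling, where the Atp5o probe turned to 0.09. Of the genes for the c ring, through which the protons pass, Atp5g3 changed by 0.08 ± 0.09 (adjusted p = 0.486) and Atp5g2 by -0.33 ± 0.13 (adjusted p = 0.05001, not below the threshold).

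Probes of one gene often disagreed. Of 26 genes with more than 1 measured probe, 12 had a lower probe. Only Ndufb10 and Atp5a1 of these 12 were lower at every measured probe, 1 of the Atp5a1 probes being close to background, and the other 10 also had a probe that did not pass. The dimmest probe of a gene was more negative than its brightest in 23 of the 26 genes, and in 11 of the 12, by a median log2 of -0.15 over the 26. Taking the brightest probe of each of the 82 genes, 19 genes were lower and 1 was higher. With only 1 probe per gene tested, 20 of the 82 were lower and 1 higher. Of all 8906 genes so tested, 21.6% were lower and 25.0% higher. Of the 56 genes with a single measured probe 16 were lower. Probe sequences were not used here, so whether such pairs read different transcripts, splice forms or pseudogenes was not tested.

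**Figure D4:**
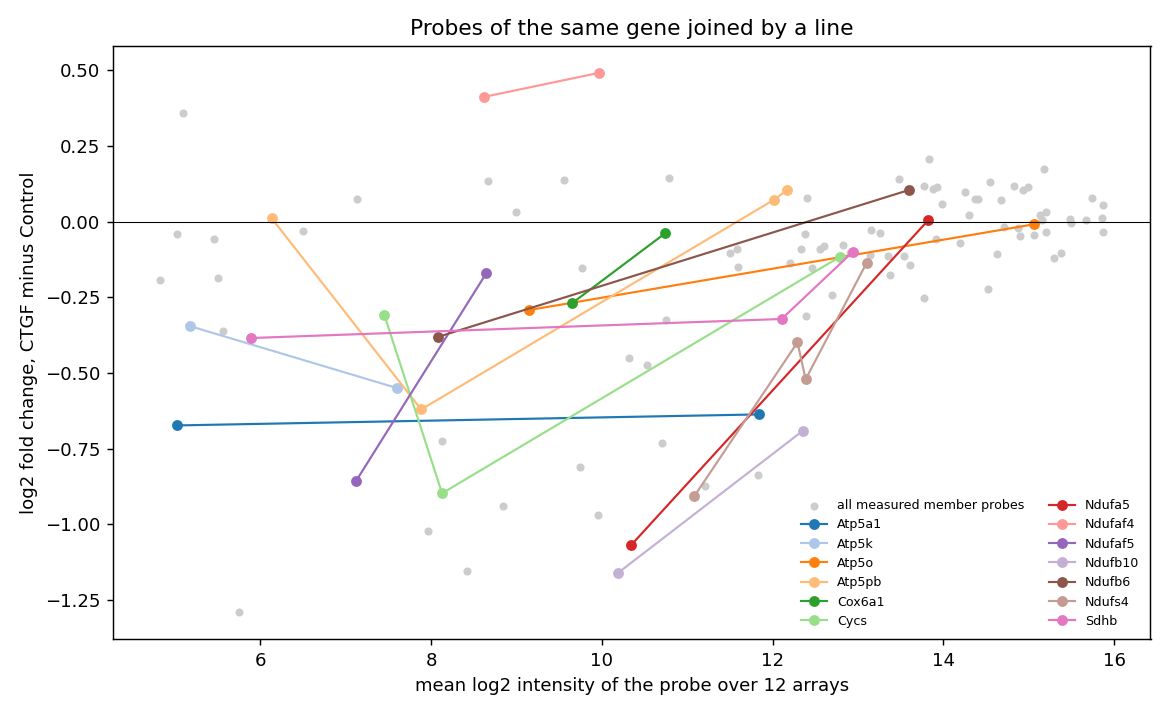
Log2 fold change, CTGF minus Control (vertical axis), against the mean log2 intensity over 12 arrays (horizontal axis) for the 117 member probes, with probes of the same gene joined for the 13 multi-probe genes that have a called probe. Lines mostly climb to the right, as the dimmer probe is the more negative one, and in 10 of these genes another probe missed the threshold while one was lower.

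The lower probes also varied together from array to array. In the 34 lower probes, the median deviation from the group mean was 0.21 on CTGF 4 and 0.30 on CTGF 6, with 28 and 29 of the 34 above the mean. On CTGF 2 it was -0.21, and on Control 1 it was -0.25 with 5 of 34 above. The 82 probes that did not pass stayed between -0.03 and 0.04 on every array. They were also brighter, with a median log2 intensity of 13.4 to 13.6 per array, against 9.2 to 10.4 for the lower probes. Whether brightness accounts for that contrast was not tested. In the lower probes, CTGF 4 and 6 were thus the CTGF arrays nearest to controls, and Control 1 the control nearest to CTGF. With CTGF 4, CTGF 6 and Control 1 left out together, 34 member probes were lower and 1 higher, and 32 of the 34 were the same probes. These arrays were picked in the same probes as nearest to the other group, so kept calls are no independent check.

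**Figure D5:**
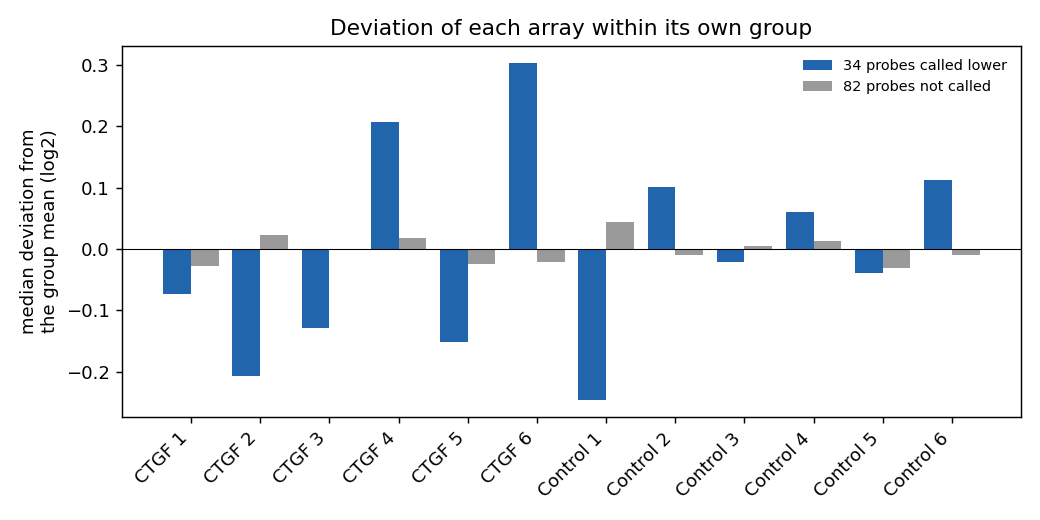
Median deviation from the mean of its own group (vertical axis, log2) on each array, in blue over the 34 lower probes and in grey over the 82 probes that did not pass. CTGF 4 and 6 lie 0.21 and 0.30 above their group and Control 1 lies 0.25 below its own in the lower probes, while the grey bars stay between -0.03 and 0.04. The 82 probes were the brighter set.

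Nuclear genes of the chain are known targets of NRF1, GABP (an ETS factor), YY1 and the estrogen-related receptors, so the 250 bases before each gene start were searched for short forms of their motifs on both strands. RefSeq promoter sequences of build GRCm38.p6 matched 73 of the 89 genes, of which 25 had a lower probe. The NRF1 motif GCGCATGCG was in 8 of the 73, or 10.96%, against 2.19% of 17491 protein-coding genes. Of these 8, Atp5k, Cox6a1, Cycs and Ndufa11 had a lower probe, Ndufaf4 had the higher one, and Atp5g2, Atp5l and Ndufa8 had no probe past the threshold. The ETS motif CCGGAAG was in 14, or 19.2%, against 10.2%, and 6 of these were genes with a lower probe, namely Atp5e, Atp5h, Cox6a1, Ndufb6, Ndufb7 and Sdhd. The ERR motif AAGGTCA was in 4, or 5.48%, against 4.18%, 2 of them lower, Ndufb2 and Ndufb4. The YY1 motif AAGATGGC was in 1, Atp5j, or 1.37%, against 1.77%. A match is a run of letters and not a bound site. The NRF1 motif overlaps its own reverse complement, so 1 stretch of letters can match on both strands, and a window can hold several motifs.

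The following windows show 1 gene lower at both probes and without a match, 3 lower genes with a match at 1 place each, and the single higher gene. Each is written 5′ to 3′ on the strand of the gene. Capitals mark the match, with both strands joined for NRF1, and its first base is counted back from the gene start. Ndufb10 lies at chr17:24724424-24724673 (minus strand). Ndufb4 lies at chr16:37654369-37654618 (minus strand) with the ERR motif at -55. Atp5e lies at chr2:174464102-174464351 (minus strand) with the reverse complement of the ETS motif, CTTCCGG, at -102. Ndufa11 lies at chr17:56717512-56717761 (plus strand) with the NRF1 motif at -60. Ndufaf4 lies at chr4:24897833-24898082 (plus strand) with the NRF1 motif at -113. Of the 2 genes shown with the NRF1 motif, Ndufa11 was lower and Ndufaf4 higher.
Ndufb10: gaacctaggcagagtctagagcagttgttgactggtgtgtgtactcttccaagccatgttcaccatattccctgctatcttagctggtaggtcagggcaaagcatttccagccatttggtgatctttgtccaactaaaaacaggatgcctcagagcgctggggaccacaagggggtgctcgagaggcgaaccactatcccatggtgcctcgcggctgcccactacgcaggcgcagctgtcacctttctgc
Ndufb4: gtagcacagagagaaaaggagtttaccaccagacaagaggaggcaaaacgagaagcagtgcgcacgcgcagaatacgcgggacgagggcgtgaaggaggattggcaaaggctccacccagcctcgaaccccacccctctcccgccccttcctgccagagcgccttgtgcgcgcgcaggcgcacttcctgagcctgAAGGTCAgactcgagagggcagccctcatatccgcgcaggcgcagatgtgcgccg
Atp5e: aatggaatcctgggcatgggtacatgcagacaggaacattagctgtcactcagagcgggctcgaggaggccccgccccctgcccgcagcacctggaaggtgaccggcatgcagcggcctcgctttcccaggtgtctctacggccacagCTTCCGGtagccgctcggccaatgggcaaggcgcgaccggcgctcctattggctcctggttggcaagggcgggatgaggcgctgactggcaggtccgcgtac
Ndufa11: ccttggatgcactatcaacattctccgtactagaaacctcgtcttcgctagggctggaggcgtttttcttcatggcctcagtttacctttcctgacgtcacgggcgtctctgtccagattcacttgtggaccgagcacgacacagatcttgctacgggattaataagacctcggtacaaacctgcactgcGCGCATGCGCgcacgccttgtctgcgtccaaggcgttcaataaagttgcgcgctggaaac
Ndufaf4: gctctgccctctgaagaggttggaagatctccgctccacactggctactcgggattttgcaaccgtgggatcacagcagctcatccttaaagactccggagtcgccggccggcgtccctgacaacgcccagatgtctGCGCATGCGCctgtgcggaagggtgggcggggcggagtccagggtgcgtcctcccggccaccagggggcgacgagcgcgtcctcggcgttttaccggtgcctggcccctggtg

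Genes around the chain were described from lists of their own, each gene by its brightest probe. Over the other assembly factors, 6 of 34 were higher and 7 lower, with a median of 0.07, against 23.8% and 19.7% of all probes. Cox19, a copper-related assembly factor of complex IV, was higher by 1.33 ± 0.07 (SE, adjusted p = 2.69e-09). Sco1, which delivers copper, was higher by 0.78 ± 0.12, with 0.19 at its other measured probe, and Cox15, which makes heme a, by 0.54 ± 0.12. Cox20, a chaperone of a complex IV core subunit, fell by 0.40 ± 0.09. With median scaling 19 of the 34 were higher, where 44.9% of all probes were, and none lower, and Cox20 did not pass.

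Of 25 regulators of mitochondrial biogenesis and of mitochondrial DNA, 10 were higher and 2 lower, with a median of 0.18, where 23.8% of all probes were higher and 19.7% lower. Pprc1, a coactivator related to PGC-1alpha, was higher by 0.92 ± 0.08 (SE, adjusted p = 4.60e-07). Esrrb, an estrogen-related receptor, was higher by 0.77 ± 0.12 and Tefm, an elongation factor of mitochondrial transcription, by 0.64 ± 0.09. Polg2, the accessory subunit of the mitochondrial DNA polymerase, fell by 0.64 ± 0.11. With median scaling 16 were higher and none lower, where 44.9% of all probes were higher, and Polg2 did not pass.

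The citrate cycle, which feeds complexes I and II, had 6 of 13 genes lower and none higher, with a median of -0.21, beside 19.7% of all probes lower. Dld, the shared lipoamide dehydrogenase subunit, fell by 0.68 ± 0.17 (SE, adjusted p = 0.00553), Idh3b and Idh2, isocitrate dehydrogenases, by 0.47 ± 0.10 and 0.41 ± 0.11, and Mdh2, malate dehydrogenase, by 0.42 ± 0.08. With median scaling 1 of the 13 was lower, where 7.95% of all probes were, and without normalization none was lower and the median turned to 0.03. Uncoupling, alternative electron input and superoxide removal had 3 of 10 lower and none higher, with a median of -0.17, beside the same 19.7%. These were Txn2, the mitochondrial thioredoxin, at -0.43 ± 0.08, Sod2, the mitochondrial superoxide dismutase, at -0.27 ± 0.07, and Etfdh, which passes electrons from fatty acid oxidation to coenzyme Q, at -0.27 ± 0.09. None of the 3 passed with median scaling, where Etfdh turned to 0.05.

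For ATP export and the creatine shuttle 2 of 9 genes were higher and 2 lower, near the 23.8% and 19.7% of all probes, with a median of -0.09 that turned to 0.01 with median scaling. Vdac2, an outer membrane channel, fell by 0.50 ± 0.08 and Ckb, brain-type creatine kinase, by 0.50 ± 0.09. Ckmt2, the creatine kinase of muscle mitochondria, was higher by 0.32 ± 0.07, as was Slc25a5, an ADP/ATP carrier, by 0.32 ± 0.08. The calls of Vdac2, Ckb and Ckmt2 were lost with median scaling. In coenzyme Q synthesis 2 of 10 were higher, against 23.8% of all probes, and none lower, with a median of -0.10 that turned to 0.17 with median scaling. These were Coq8b, at 0.84 ± 0.16, and Coq10b, at 0.59 ± 0.11, whose other probes ranged from -0.31 to 0.40. The Coq8b probe was dim, with a mean log2 intensity of 6.36 with CTGF and 5.52 in controls, and gave 0.45 without background correction. Among 13 genes for cristae and inner membrane structure 3 were higher and 1 lower, with a median of 0.03, a share near the 23.8% of all probes that were higher. Afg3l2, a membrane protease subunit, was higher by 0.49 ± 0.12, Immt, which holds cristae junctions, by 0.25 ± 0.08, and Taz, which remodels cardiolipin, by 0.22 ± 0.08. Phb2, a prohibitin, fell by 0.27 ± 0.07 and turned to 0.06 with median scaling.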

How the data were processed

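RNA of 12 myocyte samples was labelled with biotin and hybridised to single-colour Illumina bead arrays, per the protocols in the labels. The main deposited table holds the bead intensity per probe and array, not normalized, with a detection p-value for each value, per the file headers. A second deposited table holds the authors' normalized intensity values, which were used as an alternative. The sources used here do not give scanner software, slides or any earlier background step. Probes were named by the platform annotation, which can be old.

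Intensities were background corrected with the detection p-values, quantile normalized and taken to log2 with neqc of limma 3.58.1 (R 4.3.3, offset 16). Probes with a detection p under 0.05 on at least 6 of 12 arrays were kept. CTGF and Control were compared probe by probe over all 15038 such probes by a two-sided test in lmFit and eBayes, adjusted by Benjamini-Hochberg at a threshold of 0.05. Errors of fold changes are limma standard errors. The number of arrays limits the precision, with a median standard error of 0.09 over the members.

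The members and lists were chosen with earlier results of these data known. Named were the 15 largest changes past the threshold in each direction, the 2 brightest genes of each complex, other probes of those genes, complex IV and c-ring isoforms, and up to 4 called genes per pathway list. Ndufa11, Ndufb6, Ndufb7, Ndufaf2, Ndufs8, Cox6b2, Atp5a1, Atp5h, Atp5k, Atp5o and Atp5pb fall outside that rule and were named after their values were seen. So were Cspg4, the fibroblast markers and the genes listed by motif. Alternatives were other backgrounds, scalings, filters, variance models, probe summaries, a replicate block and leaving out arrays.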

Additional observations from a re-analysis of the deposited data

Results flagged for a closer look

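Of 92 groups of 6 arrays looked at, 5 had 1 array far from the other 5 by Dixon's test at the 95% level, and chance alone flags about 1 in 20. At the second Ndufaf4 probe, ILMN_2551723, Control 6 read 7.68 on the log2 scale, while the other controls read 8.40 to 8.67. At Ndufb10, ILMN_2900216, Control 1 read 10.22 against 10.75 to 11.03 in the other controls. At Cox7a1, CTGF 6 read 15.67 against 15.86 to 15.93 on the other CTGF arrays. At Atp5e, Control 1 read 10.03 against 10.48 to 10.57 in the other controls. The median log2 intensity of the 34 lower probes was 9.97 on Control 1 and 10.24 to 10.39 on the other controls.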

How the results depend on the processing

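The 34 lower and 1 higher member probes became 17 and 9 with median scaling and 15 and 13 without normalization between arrays, where the median turned to 0.041. Of the 34, 17 kept their call with median scaling and 15 without normalization, and 4 turned sign in each. With median scaling and without normalization, Cycs ILMN_3076459 turned to 0.061 and 0.10, Cox6a1 ILMN_2605400 to 0.081 and 0.13, Ndufb6 ILMN_2914507 to 0.024 and 0.069, and Atp5o ILMN_2917540 to 0.089 and 0.14. Cox6a1 ILMN_2638875, which is not among the 34, turned to 0.35 without normalization and was then called higher. The cause was not tested. With 1 probe per gene there were 20 lower and 1 higher among fewer features, 82 genes, where 21.6% of all genes were lower and 25.0% higher. The higher count was 3 without background correction, with the authors' normalized values and with a trended robust variance, and 2 when probes had to be detected on all 12 arrays. Lower counts were then 37, 37, 37 and 34. Leaving out each array in turn gave 30 to 35 lower, 1 to 3 higher and a median of -0.10 to -0.07. The higher count was 3 without CTGF 1 and 2 without CTGF 5, Control 1, Control 2, Control 4 or Control 5. Cyclic loess gave 39 and 1, array weights 36 and 1, and no detection filter 31 and 1. Leaving out CTGF 4, CTGF 6 and Control 1 together was chosen after seeing the data and gave 34 and 1.

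In 15 of the 34 probes the call held in all alternatives in which every one of the 34 was tested. They belong to Ndufa5, Ndufaf5, Ndufb10, Ndufb4, Ndufb5, Ndufb9, Ndufs4, Cox4i2, Cox7a2, Cox7b, Atp5a1, Atp5e and Atp5md. The Atp5a1 probe that held was ILMN_2570875, the one close to background, and the brighter Atp5a1 probe lost its call without normalization. The brightest probes of Ndufa5, Ndufaf5 and Ndufs4 did not pass the threshold with quantile normalization. Same-numbered arrays of both groups correlated at -0.07 to 0.05 in their deviations, and 1 of 6 correlated best with its own number, so the numbers are not taken to pair samples. With the replicate number as a block, 31 probes were lower and 1 higher. In the descriptions the CTGF samples carry the lower numbers and the controls the higher ones, so treatment and any slide or batch along that order cannot be told apart. Dim probes near background and signals near the scanner's ceiling limit both ends of the range.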
